A study of Homo sapiens with 60 samples.

Results

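The 9 early response genes NR4A1, NR4A2, NR4A3, KLF2, KLF4, KLF6, KLF10, IER2 and IER3 were followed through 3 doses and 6 durations of an artificial stress signal. The genes were picked by symbol, and 9 of the 57665 genes in the deposited table carried those symbols (3 NR4A, 4 KLF and 2 IER genes). The cells were U2OS, an established human osteosarcoma line, carrying a stable Dmr-PERK transgene in every group, untreated ones included. In this fusion the eIF2α kinase domain of mouse PERK is joined to a DmrB domain, so that the ligand AP20187, called dimerizer, brings 2 copies together and switches the kinase on. AP20187 was given at 0.01, 0.2 or 3 nM (the middle dose, rounded here as in the study's design text, is given to 3 decimals in the sample labels), and RNA was collected 1, 2, 4, 8, 16 or 24 h later. Each of these 18 treated groups had 3 libraries. The 2 untreated sets, labelled 0 h and called set 1 and set 2 here, had 3 libraries each, which made 60 libraries in 20 groups. The endogenous genotype was labelled WT throughout, and the sources used here do not name the promoter of the transgene or say whether the line is 1 clone. Treatment began the day after plating and no untreated culture was handled beside each time, so time since seeding and time with AP20187 cannot be told apart. The labels tied neither untreated set to a dose, so each comparison is given against each set apart.

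The 9 genes belong to the immediate early response, in which transcription factors that are already present in the cell switch genes on within minutes of a growth factor, serum, calcium or cytokine signal, without new protein. Their mRNAs are short-lived and decay soon after transcription stops. NR4A1, NR4A2 and NR4A3 (Nur77, Nurr1 and Nor-1) encode orphan nuclear receptors, KLF2, KLF4, KLF6 and KLF10 encode zinc finger factors that bind GC-rich promoter elements, IER2 encodes a nuclear protein linked to transcription, and IER3 (IEX-1) encodes a short-lived protein of survival signalling. CREB, which binds the cAMP response element, and the serum response factor are well-known activators of such genes. PERK slows translation by phosphorylating eIF2α, and this both raises ATF4 and its targets and limits short-lived proteins.

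On GRCh38, NR4A1 lies at chr12:52022832-52059507 (+), NR4A2 at chr2:156324432-156342348 (−), NR4A3 at chr9:99821855-99866891 (+), KLF2 at chr19:16324817-16327874 (+) and KLF4 at chr9:107484852-107490482 (−). KLF6 lies at chr10:3775996-3785281 (−), IER2 at chr19:13150415-13154908 (+) and IER3 at chr6:30743199-30744554 (−). All members are protein-coding genes in GENCODE 29. Genes on the opposite strand overlap NR4A1 (AC025259.3, at most 214.3 estimated counts in a library), IER2 (AC011446.2, at most 30.5) and IER3 (IER3-AS1, at most 13.2), and no source used here says whether the counting used strand.

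Promoter sequence was read from RefSeq (GRCh38.p14) as the 250 bases before each transcription start, which was available for 6 of the 9 members in 7 windows, NR4A1 having 2 starts. NR4A2, KLF10 and IER3 are named only. The windows of 4 starts are printed 5′ to 3′ on the strand of the gene, because NR4A1, NR4A3 and IER2 fell at all 3 doses, as described below, whereas KLF2 fell against both untreated sets at 0.01 nM and at the higher doses after 24 h lay between them. Capitals mark the core of the cAMP response element, TGACG on either strand.
NR4A3, chr9:99821635-99821884 (+): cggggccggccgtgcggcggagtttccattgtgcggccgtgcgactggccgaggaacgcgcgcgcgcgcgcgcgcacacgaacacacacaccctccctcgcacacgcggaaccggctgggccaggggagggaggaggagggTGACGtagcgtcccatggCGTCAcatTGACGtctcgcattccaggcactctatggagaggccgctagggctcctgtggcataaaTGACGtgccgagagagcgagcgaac
NR4A1, downstream start, chr12:52037465-52037714 (+): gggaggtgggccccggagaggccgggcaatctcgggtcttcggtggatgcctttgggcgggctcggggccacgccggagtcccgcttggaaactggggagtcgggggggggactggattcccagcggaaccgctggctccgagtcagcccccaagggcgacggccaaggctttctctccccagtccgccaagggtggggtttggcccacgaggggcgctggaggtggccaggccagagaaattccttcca
IER2, chr19:13150161-13150410 (+): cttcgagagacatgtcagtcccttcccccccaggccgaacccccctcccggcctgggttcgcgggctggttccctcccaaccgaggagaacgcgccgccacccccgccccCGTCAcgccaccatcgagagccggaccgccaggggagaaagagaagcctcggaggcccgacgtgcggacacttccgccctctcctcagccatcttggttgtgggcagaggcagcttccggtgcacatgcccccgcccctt
KLF2, chr19:16324576-16324825 (+): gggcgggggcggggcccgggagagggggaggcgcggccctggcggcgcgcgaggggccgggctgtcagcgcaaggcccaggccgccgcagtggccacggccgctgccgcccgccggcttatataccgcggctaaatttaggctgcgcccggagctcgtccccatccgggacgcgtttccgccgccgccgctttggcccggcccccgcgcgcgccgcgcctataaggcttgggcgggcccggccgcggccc
The NR4A3 window held 4 of these cores, beginning 109, 91, 83 and 25 bases before the start. The IER2 window held 1, that of KLF4 held 2, and those of KLF2, KLF6 and both NR4A1 starts held 0. A core was present in 21.2% of all 34788 RefSeq windows of the same length, so 3 of 7 member windows with a match is a description of these letters only. The GC box GGGCGG was found in 5 of the 7 member windows, all but that of NR4A3 and that of the upstream NR4A1 start, against 42.6% of all windows, and KLF2 held 4 matches. The CCAAT box CCAAT was found in the KLF6 window alone (2 matches, 32.0% of all windows). The full cAMP response element TGACGTCA, which contains the core (1.64% of all windows), the CArG box of the serum response factor (1.17%), the AP-1 site TGANTCA (6.59%), the site TGATGNAA of C/EBP-ATF dimers (3.16%), the NF-kB site (9.95%) and the TATA box TATAAA (10.8%) gave no match in any member window, both strands being searched.

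RNA levels are given as TPM, a share of all transcripts corrected for transcript length, so that genes can be compared with each other. Differences were tested on estimated counts with edgeR's quasi-likelihood test in 1 fit of all 60 libraries, with Benjamini-Hochberg adjustment over the 18040 genes tested. A gene is called at an adjusted p under 0.05, and ± after a log2 fold change is its standard error (SE). KLF4 did not pass the filter on low counts, so 8 of the 9 members were tested. Total counts were 5598803 to 10367667 in the 39 libraries of set 1, 0.01 nM and 0.2 nM, and 20713981 to 28436445 in the 21 libraries of set 2 and 3 nM, so 3 nM shares its depth with set 2 alone and the step from 0.2 to 3 nM also crosses this split. Mitochondrially encoded mRNA took 8.84% ± 0.615 of counts in set 1 (SD, n = 3), 4.44% ± 0.053 in set 2 and 3.37% to 5.43% in the treated groups (group means), so set 1 stands apart, and the part of this in the results was not tested. The bone and mesenchyme markers VIM (2836 TPM in set 1, 2783 in set 2) and RUNX2 (22.4 in set 2) were present, and the blood genes PTPRC, CD3E and LYZ did not exceed 0.668 TPM in any group mean. Epithelial EPCAM was at 3.71 and 5.14 TPM in set 1 and set 2. The 10 chosen target genes of the integrated stress response, among them TRIB3 and CHAC1, were read beside the labels. They were picked with earlier results of these data known, so they are no independent check of the labels. At 3 nM after 24 h 10 of 10 were higher than set 1 (39.8% of all genes were) and 10 of 10 than set 2 (39.0%). The 24 h libraries of 0.01 nM had 8 of them above and 2 below either set (18.9% and 20.2% of all genes against set 1, 19.7% and 21.9% against set 2). In bulk RNA fewer cells of a kind and less RNA per cell cannot be told apart. The 3 libraries of a group are separate samples in the labels, which do not say that they are separate cultures, so each p-value reflects the scatter of these libraries alone, and that scatter may be technical.

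Every member but KLF4 was strongly expressed before treatment, and the untreated sets differed. Of the 8 tested members 7 differed between the sets, 6 lower and 1 higher in set 2, where 14.0% of all genes were called lower and 14.9% higher. KLF2, a factor best known from endothelial cells under flow, had the widest gap. Its 3 libraries gave 84.9, 73.6 and 84.4 TPM in set 1 and 31.1, 27.9 and 32.8 TPM in set 2. The sets did not overlap, and the log2 difference was −1.54 ± 0.06 (edgeR, adjusted p = 5.1e-28). KLF10, induced early by TGF-beta, was the member higher in set 2, at 103, 99.1 and 96.3 TPM against 54.5, 57.4 and 60.5 TPM in set 1 (log2 difference 0.58). KLF6, NR4A2, IER2, NR4A1 and IER3 were lower in set 2 by log2 differences of −0.76, −0.69, −0.61, −0.46 and −0.32. NR4A3 was not called (−0.19, edgeR adjusted p = 0.12). The fit on counts and TPM are scaled apart. Fitting log2(TPM + 1) instead moved the median difference of all genes by −0.08 to 0.265 over the comparisons made. Log2 differences near 0 against set 1 therefore depend on the scale. The size of large falls can differ between the scales too, as given for NR4A1 below.

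**Figure D1:**
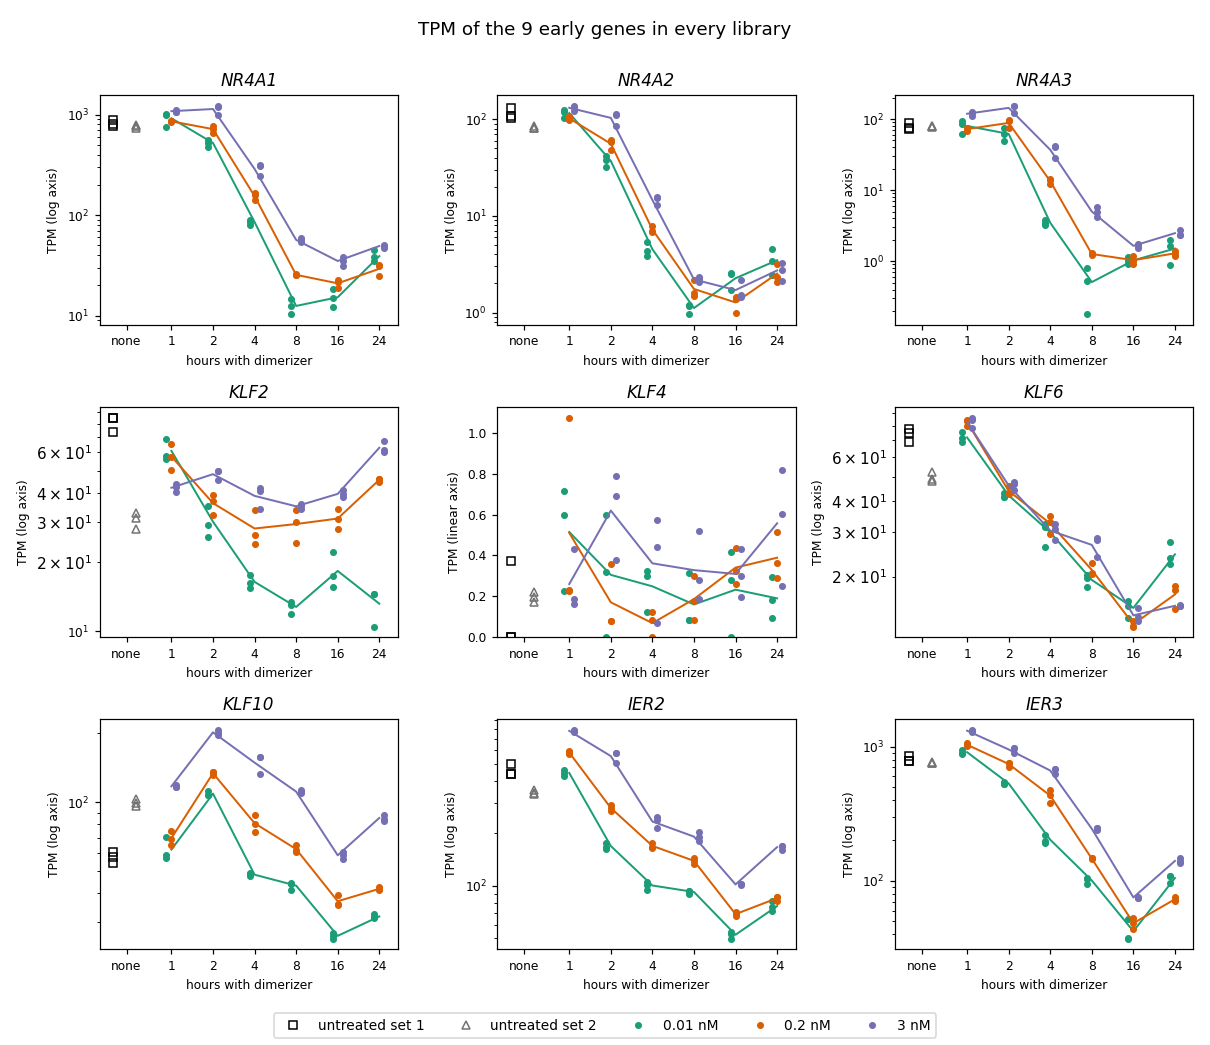
TPM of each member (vertical axis, logarithmic except for KLF4) against hours with dimerizer, with the untreated sets at the left. Each point is 1 library and each line joins the means of 3 libraries at 1 dose. The NR4A genes fall from their highest treated means at 1 or 2 h to their lowest at 8 or 16 h at every dose, while KLF10 peaks at 2 h and KLF2 at 3 nM after 24 h lies below set 1 and above set 2.

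The NR4A genes fell furthest, at every dose, 0.01 nM included. NR4A1 was at 886, 761 and 808 TPM in set 1 and 727, 783 and 761 TPM in set 2. At 0.01 nM the 3 libraries read 1013, 979 and 759 TPM after 1 h and 12.5, 10.3 and 14.5 TPM after 8 h. All 8 h libraries lay far below both untreated sets, and the log2 fold change at 8 h was −6.71 ± 0.09 against set 1 (edgeR, adjusted p = 3.1e-52) and −6.25 ± 0.09 against set 2 (adjusted p = 1.4e-50). In TPM this NR4A1 fall was 65.8-fold against set 1, where the counts gave 105-fold; against set 2 it was 60.8-fold in TPM and 76.1-fold in counts. At 3 nM the fall began later: NR4A1 means were 1079 TPM after 1 h, 1134 after 2 h and 287 after 4 h, and the 24 h libraries read 50.9, 49.1 and 47.4 TPM. The 24 h level at 3 nM was −4.80 ± 0.07 against set 1 and −4.34 ± 0.07 against set 2. In TPM this fall was smaller as well, from means of 819 in set 1 and 757 in set 2 to 49.1 at 3 nM after 24 h.

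NR4A2, a receptor best known from dopamine neurons, started at 129, 109 and 103 TPM in set 1 and 82.2, 85.2 and 81.6 TPM in set 2. At 0.01 nM its mean was 116 TPM after 1 h, 37.0 after 2 h, 4.52 after 4 h and 1.11 after 8 h, where the libraries read 0.958, 1.20 and 1.18 TPM. Neither untreated set overlapped the 8 h libraries, and the log2 fold changes were −6.88 ± 0.17 and −6.19 ± 0.17 against sets 1 and 2. At 3 nM after 24 h its libraries read 3.29, 2.77 and 2.12 TPM (−5.76 ± 0.11 and −5.07 ± 0.11).

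NR4A3 fell mostly after 2 h. It was at 87.7, 74.1 and 71.8 TPM in set 1 and 78.7, 80.9 and 77.3 TPM in set 2. At 2 h it held 61.9 TPM at 0.01 nM, 88.3 at 0.2 nM and 144 at 3 nM, the last from 123, 155 and 153 TPM. The 3 nM libraries all exceeded both untreated sets at 2 h (0.72 ± 0.09 and 0.91 ± 0.09 on the log2 scale). At 0.01 nM after 8 h the libraries read 0.814, 0.534 and 0.179 TPM, from 19, 14 and 5 estimated counts, and the log2 fold changes of −7.36 ± 0.23 and −7.16 ± 0.22 were the largest falls of any member at any dose and time. At 3 nM after 24 h NR4A3 was at 2.31, 2.78 and 2.36 TPM (−5.11 ± 0.13 and −4.91 ± 0.13).

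KLF6, a widely expressed factor induced by injury and serum, fell at every dose from 2 h against set 1 and from 4 h against set 2. Its libraries read 77.8, 74.5 and 68.6 TPM in set 1, 52.2, 48.8 and 48.1 TPM in set 2, and 13.8, 13.3 and 14.9 TPM at 3 nM after 16 h. The 16 h libraries lay below both sets without overlap (−2.49 ± 0.05 and −1.73 ± 0.05). After 1 h at 3 nM KLF6 was called higher against set 2 (0.70 ± 0.04) but not against set 1 (−0.06 ± 0.04). At 0.2 nM after 1 h the TPM mean of KLF6 was 1.13 times that of set 1 while the fit on counts called it lower (−0.19).

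KLF10, at chr8:102648779-102655902 (−), rose before it fell. After 2 h it reached 108, 112 and 107 TPM at 0.01 nM, 131, 135 and 135 TPM at 0.2 nM and 202, 207 and 198 TPM at 3 nM, its highest level at each dose. These libraries exceeded both untreated sets, and all 3 doses were called higher against each set: by 0.71, 0.94 and 1.59 on the log2 scale against set 1, and by 0.13, 0.37 and 1.01 against set 2. After 16 h the means were 26.1, 36.9 and 58.6 TPM in order of dose. That level was lower than set 2 at all 3 doses (−1.91, −1.45 and −0.68) and lower than set 1 at 0.01 and 0.2 nM (−1.33 and −0.87). At 3 nM after 16 h against set 1 KLF10 was called lower in counts (−0.10, edgeR adjusted p = 0.049) while its TPM mean was 1.02 times that of set 1, and at 0.2 nM after 8 h it was likewise lower in counts (−0.16) with a TPM ratio of 1.09. After 24 h at 3 nM the sign of its difference depended on the set, 0.41 ± 0.05 against set 1 and −0.16 ± 0.04 against set 2.

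KLF2 parted from the others with dose. At 0.01 nM it fell to 13.4, 11.9 and 13.1 TPM after 8 h (−2.59 ± 0.09 and −1.05 ± 0.09 against sets 1 and 2) and was at 14.6, 14.5 and 10.5 TPM after 24 h (−2.83 and −1.28). At 3 nM its means lay between 35 and 48.3 TPM from 1 to 16 h, and after 24 h the libraries read 67.2, 61.2 and 60.1 TPM. These lay above set 2 and below set 1 without overlap: KLF2 was called higher against set 2 (1.01 ± 0.06, edgeR adjusted p = 1.3e-23) and lower against set 1 (−0.53 ± 0.06, adjusted p = 7.3e-12). At 0.2 nM after 24 h the sign of the KLF2 difference depended on the set too (−1.22 and 0.32). After 1 h at 0.01 and 0.2 nM, with means of 60.9 and 57.6 TPM, KLF2 likewise lay above set 2 and below set 1.

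KLF4, a factor of epithelia and of pluripotency, was near silent in these cells. Its group means ran from 0.0678 to 0.62 TPM, its libraries held 0, 0 and 2 estimated counts in set 1, 6, 6 and 8 in set 2, and 11, 11 and 9 at 3 nM after 24 h. In a fit with no filter on low counts KLF4 was called in 2 of 68 comparisons, both after 24 h against set 1: at 0.2 nM (edgeR, adjusted p = 0.041) and at 3 nM (adjusted p = 0.0497). Set 1 held 2 counts in all, and the ratios of counts per total count were 6.79 (95% exact counting interval 1.60 to 60.8) and 4.93 (1.26 to 42.5). Against set 2 neither was called, the ratios being 2.16 (1.05 to 4.38) and 1.57 (0.866 to 2.90).

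IER2 fell within 2 h at the lower doses. Its libraries read 437, 438 and 501 TPM in set 1 and 337, 340 and 355 TPM in set 2. At 0.01 nM they read 168, 176 and 164 TPM after 2 h and 49.8, 54.6 and 53.0 TPM after 16 h, below both sets without overlap (at 16 h −3.27 ± 0.05 and −2.66 ± 0.05). At 3 nM they first stood at 768, 773 and 786 TPM after 1 h, above every untreated library (0.48 ± 0.04 against set 1 and 1.09 ± 0.04 against set 2), then fell to a mean of 102 TPM after 16 h (−2.24 and −1.63).

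IER3, like IER2, had its highest mean after 1 h and its lowest after 16 h at each dose, over a wider range. It was at 849, 780 and 786 TPM in set 1 and 755, 753 and 769 TPM in set 2. At 3 nM the mean rose to 1312 TPM after 1 h (0.38 ± 0.05 and 0.71 ± 0.05), and the libraries then read 622, 682 and 684 TPM after 4 h and 76.2, 74.5 and 74.9 TPM after 16 h. At 0.01 nM after 16 h they were at 37.4, 51.8 and 37.1 TPM, 22.0-fold below set 1 and 17.6-fold below set 2 by the fit (−4.46 ± 0.07 and −4.14 ± 0.07).

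Counted over 8 members and 6 times, falls prevailed at all doses, and the share of rises was larger at 3 nM. Against set 1, 43 of 48 pairs of member and time were called lower and 1 higher at 0.01 nM (21.4% and 21.1% over all genes), 42 lower and 2 higher at 0.2 nM (25.9% and 27.2%), and 33 lower and 10 higher at 3 nM (28.5% and 33.5%). Against set 2 the counts were 40 lower and 7 higher at 0.01 nM (22.9% and 21.3%), 34 lower and 7 higher at 0.2 nM (26.7% and 26.2%), and 26 lower and 21 higher at 3 nM (29.0% and 30.1%). At least a 2-fold fall was seen in 34, 31 and 27 pairs against set 1 (2.78%, 5.68% and 8.16% over all genes) and in 32, 24 and 18 pairs against set 2 (3.55%, 6.41% and 8.19%), in order of dose. The comparisons at 1 dose share the untreated libraries and so are not independent. After 1 h at 3 nM all 8 tested members were higher than set 2 (12.7% of all genes were), by 0.15 for KLF10 to 1.09 for IER2, but against set 1 only IER2, IER3, KLF10 and NR4A3 were higher, KLF2 was lower and 3 were not called (24.1% higher and 21.8% lower over all genes).

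**Figure D2:**
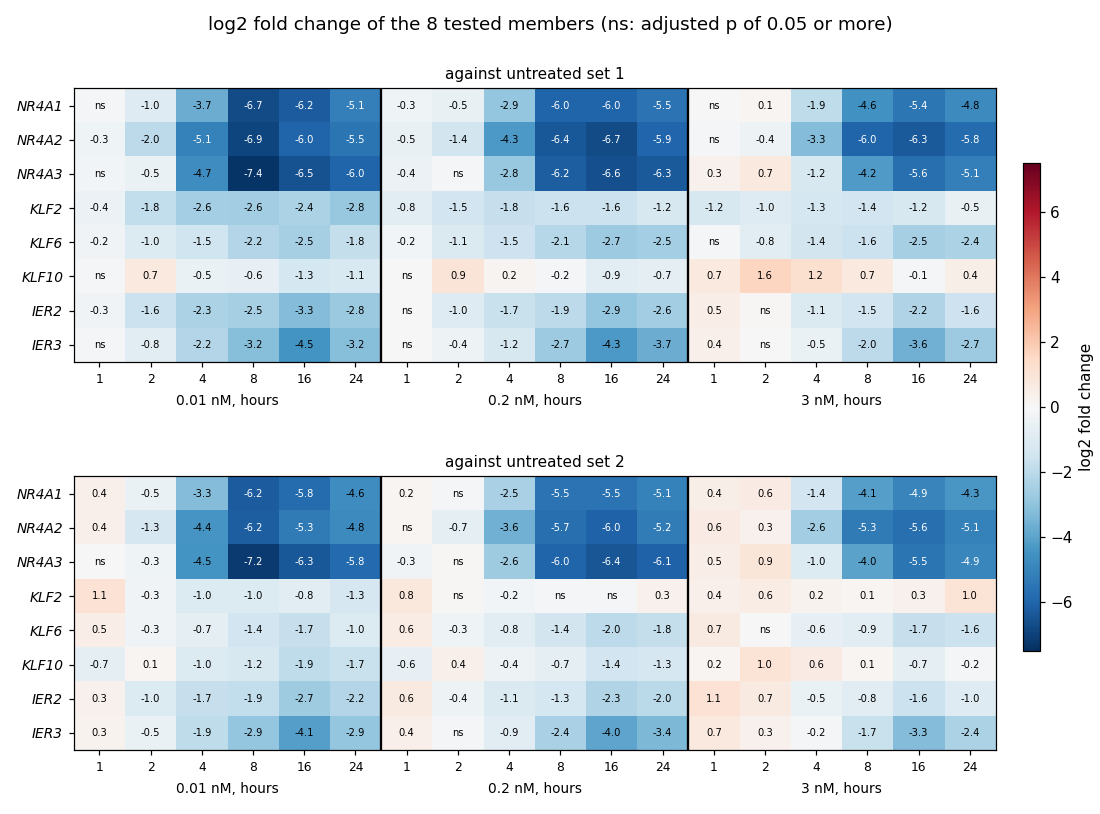
log2 fold change of the 8 tested members (rows) at each dose and hour (columns) against untreated set 1 (upper panel) and set 2 (lower panel), from the fit on counts with 3 libraries a group, with blue lower and red higher. The NR4A rows hold the deepest falls in both panels, down to −7.36 and −7.16 for NR4A3, and the KLF2 row changes sign between the panels at 3 nM.

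Comparing doses with each other at the same hour needs no untreated set. From 0.01 to 0.2 nM, which share their depth, 26 of 48 pairs were higher and 6 lower at the higher dose (14.8% and 13.1% over all genes). At 2 and 4 h 7 of 8 members were higher each time (5.53% and 13.6% of all genes) and KLF6 was not called. At 4 h NR4A3 stood at 3.25, 3.42 and 3.76 TPM with 0.01 nM, 12.1, 14.2 and 13.8 TPM with 0.2 nM, and 28.3, 40.6 and 42.1 TPM with 3 nM. The 3 doses did not overlap, and the steps were 1.81 ± 0.23 (edgeR, adjusted p = 3.5e-09) and 1.62 ± 0.13 (adjusted p = 1.1e-15). NR4A1 at 4 h read 80.1, 85.1 and 90.2 TPM, then 142, 157 and 164, then 245, 306 and 312 TPM (0.81 ± 0.07 and 1.02 ± 0.06). IER3 at 4 h read 190, 199 and 218 TPM, then 381, 438 and 474, then 622, 682 and 684 TPM (1.03 ± 0.06 and 0.70 ± 0.05), again with no overlap.

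After 24 h the step from 0.01 to 0.2 nM went both ways among the members, as it did among all genes. KLF2, KLF10 and IER2 were higher at 0.2 nM (26.9% of all genes were), by 1.61 ± 0.10, 0.40 ± 0.06 and 0.15 ± 0.05. KLF6, IER3 and NR4A1 were lower (24.6% of all genes were), at −0.72 ± 0.06, −0.51 ± 0.07 and −0.44 ± 0.10. NR4A2 (−0.47 ± 0.29) and NR4A3 (−0.26 ± 0.44) were not called. IER3, for example, read 109, 96.9 and 109 TPM at 0.01 nM and 72.5, 75.8 and 70.4 TPM at 0.2 nM.

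From 0.2 to 3 nM 44 of 48 pairs were higher and 1 lower (23.2% and 16.9% over all genes), the exception being KLF2 after 1 h (−0.41 ± 0.06). Here the dose and the depth of the libraries cannot be told apart. With each dose taken relative to the untreated set of like depth, a comparison added after the values were seen, 46 of 48 pairs were higher and 0 lower (15.7% and 13.0% over all genes). For each gene this comparison subtracts the difference between set 2 and set 1, the same at every time. Members lower in set 2 therefore moved up and KLF10, higher there, moved down, so it does not part dose from depth. KLF2 after 1 h turned to 1.13 in this comparison. KLF10 was no longer called after 1 h (0.18, edgeR adjusted p = 0.06) and 2 h (0.07, adjusted p = 0.458), its differences from 4 h on being 0.19 to 0.55. KLF6 was called 0.13, 0.17 and 0.15 higher at 3 nM after 1, 4 and 24 h while its TPM means were 1.00, 0.94 and 0.90 times those at 0.2 nM, so its direction there depends on the scale. Mean TPM rose with each step of dose at all 6 times for KLF10 and IER2, with libraries of the 3 doses fully apart at 5 and 6 of them, but at only 2 times for KLF6.

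**Figure D3:**
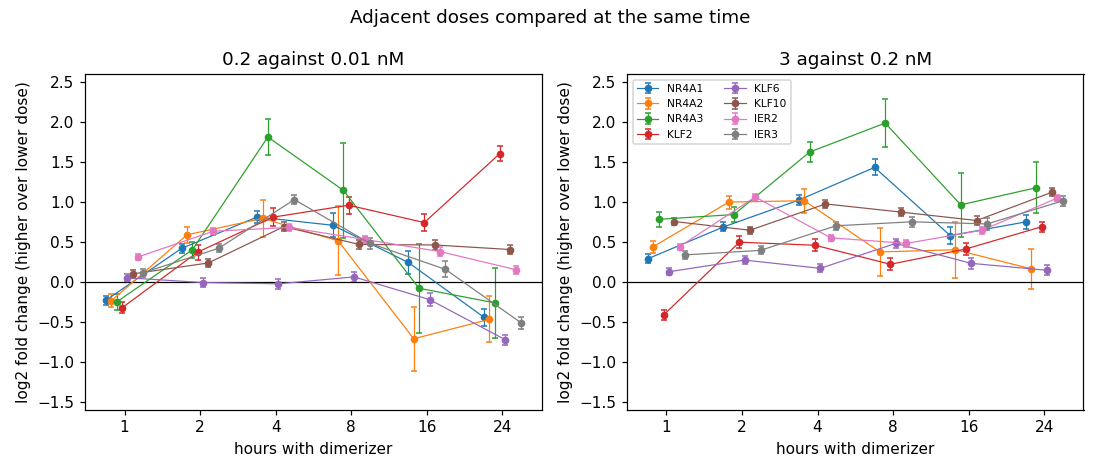
log2 fold change of the 8 tested members between adjacent doses at the same hour (horizontal axis), 0.2 against 0.01 nM at the left and 3 against 0.2 nM at the right, with bars of ± 1 SE (3 libraries a group). The left panel peaks for most members at 4 h, with NR4A3 at 1.81, and spreads out by 24 h from −0.72 for KLF6 to 1.61 for KLF2, while nearly all points of the right panel lie above 0.

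The share of the 1 h level found at 4 h was taken within each dose, with libraries of 1 depth range and no untreated set. A later fall and RNA made after 1 h cannot be told apart in this share. For NR4A3 it was 4.36% at 0.01 nM, 18.5% at 0.2 nM and 31.2% at 3 nM (ratios of mean TPM). For NR4A1 it was 9.28%, 18.1% and 26.6%, for NR4A2 3.90%, 7.07% and 11.1%, and for IER3 22.3%, 41.8% and 50.5%. KLF2 was at 27.0%, 48.7% and 92.2% of its 1 h level, whereas KLF6 was at 41.8%, 39.3% and 36.9%. For KLF10 the share was 77.7%, 116% and 127%, and for IER2 22.6%, 29.1% and 30.2%. The change from 1 to 4 h was compared between doses by an interaction term, also added after the values were seen. Between 0.01 and 0.2 nM the change was higher at the higher dose for 7 of 8 members (6.79% of all genes had a positive difference and 3.94% a negative one), led by NR4A3 at 2.06 ± 0.25, and KLF6 was not called (−0.08 ± 0.08). Between 0.2 and 3 nM it was higher for 6 of 8 (3.32% positive and 2.49% negative), led by KLF2 at 0.87 ± 0.10 and NR4A3 at 0.84 ± 0.16, while IER2 (0.11 ± 0.05) and KLF6 (0.04 ± 0.07) were not called. Fits on log2(TPM + 1) and log2(TPM + 0.1) called 1 member for the second step, not 6, and leaving out 1 library gave 4 to 6, the calls of KLF10 and NR4A2 being the ones most often lost.

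From 4 to 24 h the change was more negative at 0.2 than at 0.01 nM for 7 of 8 members (16.0% of all genes), down to −2.08 ± 0.50 for NR4A3, and higher for KLF2 (0.80 ± 0.15, 15.2% of all genes). The 4 h libraries also enter the change from 1 to 4 h, with opposite sign, so the 2 comparisons are not independent. NR4A3 means at 0.01 and 0.2 nM were 3.48 and 13.4 TPM at 4 h and 1.51 and 1.29 TPM at 24 h. Between 3 and 0.2 nM 2 members had a more negative change, NR4A2 at −0.85 ± 0.31 and NR4A1 at −0.27 ± 0.11 (16.7% of all genes), and 2 a less negative one, IER2 at 0.50 ± 0.06 and IER3 at 0.31 ± 0.08 (19.5%). The NR4A1 and NR4A2 calls were both lost without replicate 3 of 0.2 nM after 24 h or replicate 3 of 3 nM after 24 h, which leaves 0 of 8, and the NR4A1 call (edgeR, adjusted p = 0.047) was also lost without several other single libraries.

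Step by step, the NR4A genes fell most between 2 and 8 h. Of 40 pairs of member and step, 26 were lower and 7 higher at 0.01 nM (14.5% and 14.5% over all genes), 25 lower and 6 higher at 0.2 nM (13.6% and 14.4%), and 25 lower and 11 higher at 3 nM (19.2% and 21.0%, the fits on TPM calling 6 or 7 higher). From 2 to 4 h all 8 tested members fell at all 3 doses (15.4%, 16.8% and 24.8% of all genes did, in order of dose), with NR4A3 at −4.13 ± 0.17, −2.71 ± 0.13 and −1.93 ± 0.09 in order of dose. From 1 to 2 h NR4A3 fell at 0.01 nM (−0.33 ± 0.10) but rose at 0.2 nM (0.32 ± 0.10) and 3 nM (0.38 ± 0.08), and KLF10 rose at each dose (0.83, 0.97 and 0.86). Between 16 and 24 h part of the loss came back for some members. KLF6 was not called in this step at 0.2 or 3 nM, KLF10 not at 0.2 nM and NR4A2 not at 0.01 or 0.2 nM. IER3 rose by 1.26 ± 0.09, 0.59 ± 0.09 and 0.88 ± 0.06, IER2 by 0.49, 0.26 and 0.67, and NR4A1 by 1.12 ± 0.12, 0.44 ± 0.12 and 0.61 ± 0.07. NR4A3 was not called in this step at any dose (0.50 ± 0.49, 0.32 ± 0.50 and 0.54 ± 0.22), and KLF2 fell at 0.01 nM (−0.48 ± 0.12) while it rose at 0.2 nM (0.39 ± 0.08) and 3 nM (0.67 ± 0.06).

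Ordered by mean TPM over the 20 groups, NR4A1 was highest at 3 nM after 2 h (1134 ± 121 TPM, SD, n = 3) and 1 h (1079 ± 33.7), 2 groups whose libraries overlapped, and lowest at 0.01 nM after 16 h (15.2 ± 3.17) and 8 h (12.5 ± 2.14), which overlapped too. Set 1 overlapped both 0.2 nM after 1 h above it and set 2 below it. NR4A3 had the same 2 groups on top, and 0.01 nM after 8 h (0.509 ± 0.318) at the bottom, apart from the next, 0.01 nM after 16 h (1.03 ± 0.112). For NR4A2 the groups from 0.01 nM after 4 h (4.52 ± 0.816) down to 3 nM after 16 h (1.71 ± 0.388) overlapped each with its neighbour, so the order of neighbours among these 8 groups is uncertain. Overlap of 3 libraries a group is no test of a difference.

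Likeness of pattern was described by Pearson's r of log2(mean TPM + 1) over the 20 groups, which share the untreated sets and the split in depth, among 17359 genes. The genes most like NR4A1 were NR4A3 (r = 0.99), DUSP2 (0.984) and SPRY2 (0.977), the latter pair encoding inhibitors of MAP kinase signalling. NR4A3 was nearest to DUSP2 (0.992), NR4A1 (0.99) and CCL3 (0.98). NR4A2 was nearest to the zinc finger gene EGR2 (0.984), ZFP36 (0.977), whose product speeds the decay of AU-rich mRNAs, and RP13-614K11.2 (0.975). IER2 was nearest to MCL1 (0.977), DUSP1 (0.974) and EGR1 (0.966), IER3 to the AP-1 gene JUNB (0.99), ZC3H12A (0.976) and PER1 (0.974), and KLF6 to KRT17P1 (0.968), SLC2A3 (0.967) and FOS (0.961). KLF10 had RYBP (0.962), COQ10B (0.959) and GPATCH2 (0.951). KLF2 had weaker neighbours, led by the stress-induced factor gene ATF3 (0.845), RND3 (0.803) and ADAMTS1 (0.799), and those of KLF4, ZNF699 (0.735), AP000640.2 (0.733) and VWA8 (0.732), rest on its few counts. Among the members, NR4A1, NR4A2 and NR4A3 had r of 0.97 to 0.99 with each other, and KLF2 did not exceed 0.665 with any member.

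The other genes of these pathways were read from lists chosen with earlier results known. Of 25 other immediate early genes, 20 were lower and 2 higher at 3 nM after 24 h against set 2 (36.9% and 39.0% of all genes; median log2 fold change −1.58 against 0.00 over all genes), and 22 lower and 3 higher against set 1 (33.3% and 39.8%; median −2.14 against 0.09). EGR2 (−7.61 and −7.90 against sets 2 and 1) and EGR4 (−5.35 and −5.81) fell furthest, and MYC (0.73 and 0.12) and MAFF (0.23 and 0.16) rose. At 3 nM after 1 h 22 of the 25 were higher than set 2 and 0 lower (12.7% and 14.2% of all genes). This 1 h count is given against set 2 only and may depend on the set. Of the 8 tested members, 8 were higher than set 2 at that dose and time but 4 than set 1 (12.7% and 24.1% of all genes). After 4 h 22 of 25 were higher at 3 than at 0.2 nM and 1 lower (21.3% and 15.5% of all genes). At that time at 3 nM 6 of the 8 tested members were already lower than set 2 and 7 lower than set 1 (31.8% and 29.0% of all genes). EGR4 was then still above both sets (1.09 ± 0.08 against set 2 and 0.63 ± 0.10 against set 1).

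Of 13 other KLF genes 12 were tested. At 3 nM after 24 h 9 were lower and 2 higher than set 2 (36.9% and 39.0% of all genes), and 9 lower and 1 higher than set 1 (33.3% and 39.8%), with median log2 fold changes of −0.58 and −0.54. KLF12 (−1.57 ± 0.08 and −1.46 ± 0.10 against sets 2 and 1) and KLF17 (−1.74 ± 0.47 and −3.00 ± 0.49) fell furthest, and KLF16 rose (0.82 and 0.77). KLF15 was higher against set 2 (1.97 ± 0.39) and not called against set 1 (−0.41 ± 0.37). Of 14 regulators of the serum response and CREB pathways, 7 were higher and 6 lower than set 2, and 8 higher and 4 lower than set 1 (39.0% and 36.9% of all genes against set 2, 39.8% and 33.3% against set 1). Among them CREM (0.90 and 0.72), a cAMP-responsive member of the CREB family, and CRTC3 (0.70 and 0.78), a CREB coactivator, rose. MEF2C (−2.55 ± 0.30 and −2.21 ± 0.37) and MKL2 (−1.19 and −1.02), partner factors of muscle and serum response genes, fell.

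Of 12 early TGF-beta target genes, 9 were lower and 2 higher than set 2 at 3 nM after 24 h (36.9% and 39.0% of all genes), and 10 lower and 1 higher than set 1 (33.3% and 39.8%), with medians of −1.14 and −1.26. SMAD6 (−3.25 and −2.85), an inhibitor of the pathway, and the matrix gene TGFBI (−2.40 and −2.23) fell furthest, TGIF1 rose (0.72 and 0.15), and SKI rose against set 2 (0.28) and was at 0.11 ± 0.06, not called, against set 1. Of 12 early NF-kB target genes 10 were tested. After 4 h at 3 nM all 10 were higher than either set (31.9% of all genes against set 2 and 33.5% against set 1), with medians of 2.54 and 3.38. After 24 h 5 were higher and 4 lower than set 2 (39.0% and 36.9% of all genes), and 5 higher and 3 lower than set 1 (39.8% and 33.3%), shares near those of all genes. TRAF1 (3.81 and 4.58) and CXCL8 (2.30 and 2.08) rose most, and CCL2 (−3.56 and −3.65) and TNFAIP3 (−1.43 and −1.14) fell furthest. IER3, which is also induced by NF-kB, was called lower at that time against both sets (−2.38 and −2.70).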

How the data were processed

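RNA from 60 libraries of U2OS cells was sequenced on an Illumina NovaSeq after strand-specific library preparation, per the labels' protocols. The authors deposited a table of estimated counts per gene and a table of TPM per gene, which also gave the symbols. The submitters' processing notes name Salmon 0.9.1, FastQC 0.11.5 and GRCh38 with no roles, and no annotation release is named. Among the 57665 gene identifiers, 57068 (99.0%) matched GENCODE 29. Of the nonzero estimated counts 54.2% were whole (tolerance 1e-06), and all were rounded. The tables held 0 columns of samples outside the series.

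Counts were fitted in edgeR 4.0.16 (R 4.3.3) with TMM scaling, filterByExpr (18040 genes kept) and 1 mean per group (40 residual degrees of freedom). P-values were adjusted by Benjamini-Hochberg within each of 68 contrasts: 36 against the untreated sets, 1 between the sets, 12 between doses, 15 between times and 4 interactions, of which 2 were added after the values were seen. An approximate SE was taken as |log2 fold change| over the root of F. On simulated counts for 3 nM after 24 h against set 2 (18040 genes), the fit recovered 82% of 100 genes changed 2-fold and 66% of 100 changed 1.4-fold. Alternatives were RLE scaling, no filter, DESeq2 1.42.0, limma 3.58.1 on log2(TPM + 1) and log2(TPM + 0.1), the mean of both sets as control, each library left out and a replicate block. Between libraries of a group (60 pairs) chi-square per degree of freedom was at least 1.37 and at most 21.9, which is more scatter than counting noise alone. This does not tell separate cultures from technical repeats.

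The members and gene lists were chosen with earlier results of these data known. The text names all 9 members, for each the 3 genes of highest Pearson r over the 20 groups among tested genes with at least 1 TPM in a group mean, and of each list the 2 largest rises and 2 largest falls called at 3 nM after 24 h against set 2. EGR4 at 4 h, the count ratios of KLF4, promoter windows chosen for printing and the groups printed by library were chosen after their values were seen. Intervals and floors cover counting error only, since reads carry no molecular identifiers.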

Additional observations from a re-analysis of the deposited data

Results flagged for a closer look

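Changes over time that differed between adjacent doses by an interaction term (edgeR's quasi-likelihood test with Benjamini-Hochberg adjustment, log2 scale, 3 libraries a group) are listed here with values. No cause was tested.

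From 1 to 4 h, a comparison added after the values were seen, the change at 0.2 nM minus that at 0.01 nM was 2.06 for NR4A3, 1.04 for NR4A1, 1.03 for NR4A2, 1.13 for KLF2, 0.591 for KLF10, 0.916 for IER3 and 0.369 for IER2. The change at 3 nM minus that at 0.2 nM was 0.842 for NR4A3, 0.735 for NR4A1, 0.575 for NR4A2 (adjusted p = 0.029), 0.871 for KLF2, 0.22 for KLF10 (adjusted p = 0.028) and 0.364 for IER3.

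From 4 to 24 h the change at 0.2 nM minus that at 0.01 nM was −2.08 for NR4A3, −1.26 for both NR4A1 and NR4A2, −1.54 for IER3, −0.699 for KLF6, −0.528 for IER2, −0.286 for KLF10 and 0.795 for KLF2. These libraries share their range of depth. The 4 h libraries enter this comparison and that from 1 to 4 h with opposite sign, so the values of both are not independent. The change at 3 nM minus that at 0.2 nM was −0.852 for NR4A2 (adjusted p = 0.023), −0.274 for NR4A1 (adjusted p = 0.047), 0.312 for IER3 and 0.499 for IER2.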

How the results depend on the processing

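The falls of the NR4A genes from 4 h on kept their direction under every alternative run. Scaling moved the median difference of all genes by −0.0517 to 0.0121 (log2) with RLE, −0.0803 to 0.265 with log2(TPM + 1) and −0.0927 to 0.319 with log2(TPM + 0.1). Of the single values of members, RLE, DESeq2, the fit with no filter, the replicate block and leaving out 1 library turned 0, both TPM fits 11 each, and the mean of both sets 24; the cause was not tested. In order of dose, 1, 2 and 10 pairs of member and time were called higher against set 1. Against set 2 these numbers were 7, 7 and 21. With the mean of both sets as control they were 4, 4 and 16. That control turned values against set 1 at 0.01 nM after 1 h (KLF6 0.14, NR4A1 0.15, KLF2 0.33, NR4A2 0.043, IER2 0.029), at 0.2 nM (KLF6 0.19 and KLF2 0.0034 after 1 h, KLF10 −0.069 after 4 h) and at 3 nM (KLF6 0.32, NR4A1 0.21 and NR4A2 0.25 after 1 h, IER3 0.16 after 2 h, KLF2 0.24 after 24 h). It turned values against set 2 at 0.2 nM (NR4A1 −0.079 and NR4A2 −0.19 after 1 h, KLF2 −0.68 after 2 h and −0.45 after 24 h) and at 3 nM (NR4A2 −0.039 after 2 h, KLF10 0.12 after 24 h, and KLF2 −0.41, −0.19, −0.53, −0.64 and −0.43 after 1, 2, 4, 8 and 16 h). The fits on log2(TPM + 1) and log2(TPM + 0.1) turned, against set 1, NR4A2 at 0.01 nM after 1 h (0.026 in both), at 0.2 nM after 1 h KLF6 (0.17 in both), NR4A1 (0.065 in both) and KLF10 (0.27 and 0.28), KLF10 at 0.2 nM after 8 h (0.12 in both), and at 3 nM NR4A1 after 1 h (0.40 in both), IER3 after 2 h (0.24 in both) and KLF10 after 16 h (0.029 and 0.030). They also turned KLF6 at 3 against 0.2 nM after 1 h (−0.0014 and −0.0015), 4 h (−0.090 and −0.092) and 24 h (−0.14 in both). They called 5 pairs of member and time higher at 0.2 nM against set 1 (both) and 4 at 0.01 nM against set 2 (pseudocount 0.1). Of the steps in time at 3 nM they called 6 and 7 higher in place of 11. For the change from 4 to 24 h at 3 against 0.2 nM, the pseudocount of 0.1 called 1 lower and the fit with no filter 4 higher, each in place of 2, and leaving out 1 library gave 0 to 2 lower. For the change from 1 to 4 h at 3 against 0.2 nM both TPM fits called 1 higher in place of 6. With no filter 10 pairs in place of 6 were lower at 0.2 than at 0.01 nM. Relative to untreated sets of like depth 0 in place of 1 were lower at 3 than at 0.2 nM, and KLF2 after 1 h turned to 1.13. The labels do not say that replicate numbers pair libraries, and the correlation of same-numbered deviations ran from −0.441 to 0.426 (6774 genes), so no pairing was assumed; 34 of 60 libraries correlated best with their own number, where 20 is the mean for exchangeable numbers, which is a hint from the data that numbers share something. With the replicate block 32 in place of 33 pairs were lower at 3 nM against set 1 and 27 in place of 26 steps at 0.01 nM, and no other count changed. Low counts limit NR4A2 and NR4A3 after 8 h at the lower doses, where SEs between doses reached 0.59, and KLF4 throughout.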
